A study of Rattus norvegicus with 4 samples.

Results

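The immediate early activity genes described here are Fos, Fosb, Jun, Junb, Egr1, Egr2, Egr4, Npas4, Arc and Dusp1. They were chosen by gene symbol, and all 10 were listed in each of the 4 libraries, among 16182 transcripts listed in every library and 17419 listed in any. The study asked whether exposure to bisphenol A (BPA), a monomer of polycarbonate plastics with estrogen-like activity, before birth changes gene expression in the brain of the offspring. The rats were Wistar per the sample labels and Wistar Furth per the study's methods. Dosing of the dams was daily, began on gestational day 1 and ended at birth, with 5000 µg/kg of BPA in the BPA groups and only the vehicle in the control groups. Polyadenylated RNA from the frontal cortex of their pups was sequenced in 1 library per sex and treatment, and a library is named below by its treatment and sex. The pups were at postnatal day 1 per the sample labels, where the study's methods also include the day after and name the tissue prefrontal cortex. For each sex and treatment the methods describe 3 pups, from independent litters, and do not state whether their RNA was pooled into the library. Within a sex the comparison is therefore of 1 library with 1 library, it has no replicate check, and it compares those libraries and not the conditions.

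Immediate early genes are switched on within minutes of a stimulus, without new protein synthesis, because their activators are already present in the resting cell and are phosphorylated after the stimulus. In neurons, calcium entry through glutamate receptors and voltage-gated channels acts through the MAP kinase cascade and calcium-dependent kinases on the serum response factor with its Elk partners and on CREB, and the resulting transcripts are short-lived. Their products are transcription factors that start later programs, proteins that act at the synapse, and phosphatases that end the signal. Vascular, meningeal and glial cells also transcribe several of these genes.

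Levels are given as FPKM, the fragments mapped to a transcript scaled to its length and to the number of fragments mapped in the library. The libraries held between 8960500 and 9253500 fragments, a depth recovered from the steps between the values of scarce transcripts. Per length, Jun had the highest mean level of the members, 13.1 FPKM, followed by Dusp1 at 9.13 and Egr1 at 7.21. Junb followed at 2.31 and Fos at 1.56, and the other 5 had means under 1 FPKM, from 0.75 for Arc to 0.173 for Fosb. Among all transcripts Jun stood at percentile 64.8 of mean FPKM, Fos at percentile 24.5 and Fosb at percentile 6.01. The members were thus spread from the scarce end to the upper middle of the libraries. Summed over the 10 members, the level was 36.32 FPKM in the control male library, 32.59 in the BPA male, 42.26 in the control female and 30.85 in the BPA female. The control female library had the highest sum and both BPA libraries lay below both control libraries, although Jun, Dusp1 and Egr1 make up most of each sum. These are bulk tissue libraries, in which fewer cells of a type and less RNA per cell cannot be told apart.

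**Figure D1:**
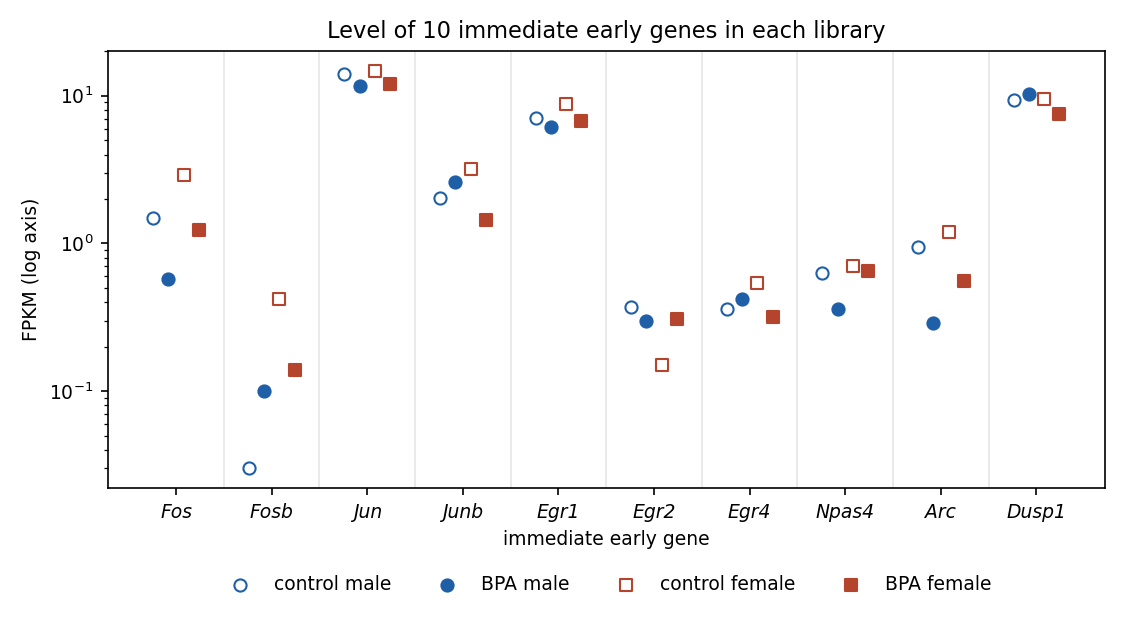
FPKM of each gene (log axis) in the 4 libraries, 1 point per library, with open symbols for control, filled symbols for BPA, circles for males and squares for females. Filled points lie below both open points for Fos, Jun, Egr1 and Arc, while Jun stays between 11.59 and 14.79 FPKM and Fosb between 0.03 and 0.42.

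The AP-1 factors are dimers of a Fos and a Jun protein. Fos (Gene ID 314322), the partner most used as a marker of recent neuronal activity, was at 1.49 FPKM in the control male library, 0.57 in the BPA male, 2.92 in the control female and 1.24 in the BPA female, from an estimated 21, 8, 40 and 17 fragments. Both BPA libraries lay below both control libraries, and within each treatment the female library was the higher one. The FPKM ratio of BPA to control was 0.383 in males, with a 95% counting interval of 0.147 to 0.902, and 0.425 in females, with an interval of 0.225 to 0.763. These intervals come from the estimated fragments and cover counting error only, not the spread between animals. On the scale of log2(FPKM + 0.5), which understates ratios of scarce transcripts, the ratio was -0.90 in males and -0.97 in females. The control libraries also differed from each other, and the control female library had 1.96 times the Fos level of the control male, with an interval of 1.13 to 3.51.

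Fosb (Gene ID 100360880), a Fos relative whose long-lived splice form accumulates with repeated stimulation, was the scarcest member, at 0.03 FPKM in the control male library, 0.10 in the BPA male, 0.42 in the control female and 0.14 in the BPA female, from 1, 3, 12 and 4 fragments. The control female library stood above the other libraries, and the groups overlapped. The ratio of BPA to control was 3.33 in males (interval 0.243 to 159) and 0.333 in females (interval 0.078 to 1.09), and a difference in either sex was not detectable at this depth. Jun (Gene ID 24516), the main DNA-binding partner of Fos, had values of 14.06 FPKM in the control male library, 11.59 in the BPA male, 14.79 in the control female and 11.95 in the BPA female. Its libraries fell into a lower BPA pair and a higher control pair, with a smaller distance between the sexes than between the treatments. With 324 to 404 fragments per library, Jun had the narrowest intervals of the members, and its ratio was 0.824 in males (interval 0.709 to 0.957) and 0.808 in females (interval 0.696 to 0.937).

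Junb (Gene ID 24517), a Jun relative that is a weaker activator and restrains Jun on many promoters, was at 2.03 FPKM in the control male library, 2.60 in the BPA male, 3.17 in the control female and 1.45 in the BPA female. The BPA female library was the lowest and the control female the highest, with both male libraries between them. In females the ratio of BPA to control was 0.457 (interval 0.267 to 0.764), and in males it was 1.28 (interval 0.793 to 2.09). The female ratio was 0.36 times the male ratio, with an exact conditional interval of 0.172 to 0.736 for counting error alone.

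The Egr factors bind GC-rich sites through zinc fingers. Egr1 (Gene ID 24330), which is transcribed in cortical neurons also at rest, was at 7.08 FPKM in the control male library, 6.16 in the BPA male, 8.84 in the control female and 6.75 in the BPA female. Both BPA libraries were below both control libraries, by a small margin between the BPA female and the control male. Its ratio was 0.87 in males (interval 0.641 to 1.18) and 0.764 in females (interval 0.573 to 1.02), so that neither sex by itself differed beyond counting error.

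Egr2 (Gene ID 114090), known for its part in hindbrain patterning and in myelination by Schwann cells, was at 0.37 FPKM in the control male library, 0.30 in the BPA male, 0.15 in the control female and 0.31 in the BPA female. It was the only member with a higher level in the BPA female than in the control female library, and the BPA libraries lay between the control libraries. Egr4 (Gene ID 25129), a brain-enriched relative, was at 0.36 FPKM in the control male library, 0.42 in the BPA male, 0.54 in the control female and 0.32 in the BPA female. The BPA libraries enclosed the control male value, and the groups overlapped. These 2 genes rested on 4 to 10 fragments per library, and each ratio had an interval that held 1, from 0.276 to 2.27 for Egr2 in males and from 0.178 to 1.81 for Egr4 in females.

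Npas4 (Gene ID 266734), a neuron-specific bHLH-PAS factor that responds to calcium entry and shapes inhibitory synapses, was at 0.63 FPKM in the control male library, 0.36 in the BPA male, 0.70 in the control female and 0.65 in the BPA female. The BPA male library was the lowest, while the BPA female lay between the control libraries. The ratio was 0.571 in males (interval 0.209 to 1.47) and 0.929 in females (interval 0.415 to 2.06), from 8 to 15 fragments per library.

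The effectors differed from each other. Arc (Gene ID 54323), whose protein promotes the removal of AMPA receptors from synapses, was at 0.95 FPKM in the control male library, 0.29 in the BPA male, 1.20 in the control female and 0.56 in the BPA female, from 26, 8, 32 and 15 fragments. The BPA libraries were both below the control libraries, as for Fos, with the BPA male again the lowest and the control female again the highest. The ratio was 0.305 in males (interval 0.121 to 0.705) and 0.467 in females (interval 0.235 to 0.887), or -0.88 and -0.68 on the log2 scale with the pseudocount.

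Dusp1 (Gene ID 114856), a nuclear phosphatase that inactivates MAP kinases and also responds to stress and glucocorticoids, was at 9.32 FPKM in the control male library, 10.20 in the BPA male, 9.53 in the control female and 7.48 in the BPA female. The BPA female library was the lowest and the BPA male the highest, with the control libraries close together between them. Its ratio was 1.09 in males (interval 0.886 to 1.36) and 0.785 in females (interval 0.622 to 0.99), and the female ratio was 0.718 times the male ratio (interval 0.522 to 0.986). Junb and Dusp1 were thus the 2 of 10 members whose interval between the sexes lay below 1, against 10% of all transcripts, and 18.7% had an interval without 1 in either direction.

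**Figure D2:**
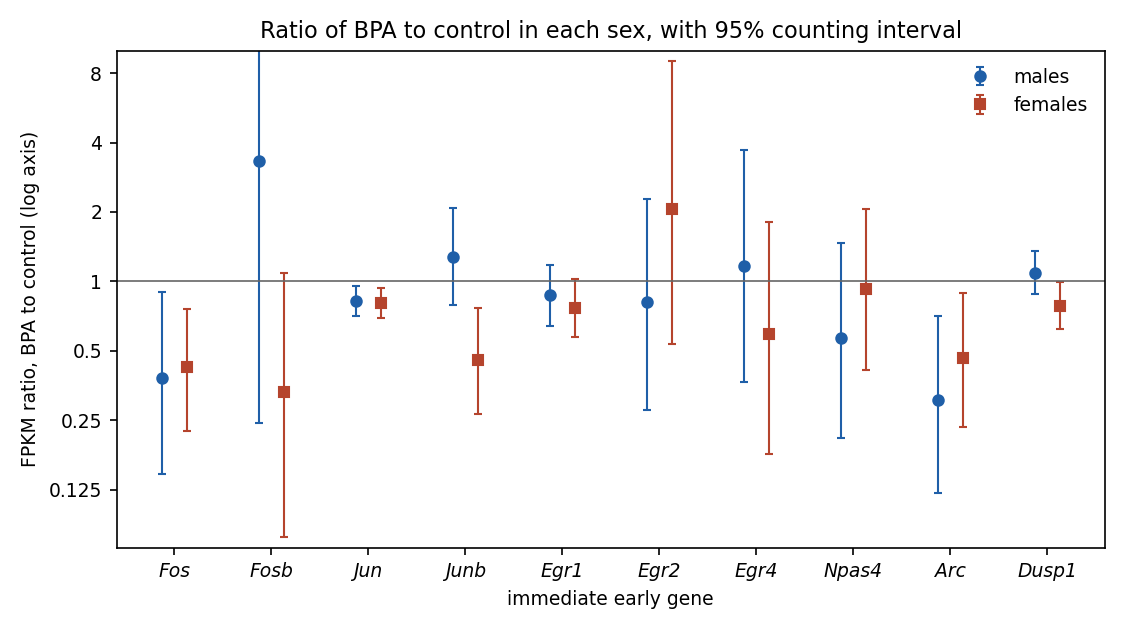
Ratio of the FPKM in the BPA library to that in the control library of the same sex (log axis), as circles for males and squares for females, with bars for the 95% counting interval and a line at 1. The intervals of Fos, Jun and Arc lie below 1 in both sexes, those of Junb and Dusp1 only in females, and the bar of Fosb in males runs past the axis to 159.

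Read across the members, no gene reached a log2 ratio of 1 in size with the pseudocount of 0.5 in males, where 3.97% of the 16182 transcripts did, nor in females, where 4.98% did. Without a pseudocount, 3 members (Fos, Fosb and Arc) differed at least 2-fold in males against 13.7% of all transcripts, and 5 (Fos, Fosb, Junb, Egr2 and Arc) in females against 15.6%. That second reading was chosen after the data were seen, and it counts scarce transcripts whose ratio rests on few fragments. For the members with a mean under 1 FPKM other than Arc, each interval held 1 in both sexes.

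The BPA libraries were both below the control libraries for 4 of 10 members (Fos, Jun, Egr1 and Arc), against 30.9% of all transcripts, and both above for 0 of 10, against 17.1%. The share below was therefore close to that of the whole table. The 4 members also had the same order of libraries, with the BPA male lowest, followed by the BPA female, the control male and the control female, an order found in 8.24% of all transcripts and noticed after the values were seen. A log2 ratio below 0 in both sexes was found for 5 of 10 members, with Npas4 added to these 4, against 38.8% of all transcripts, and ratios of opposite sign in the sexes for the other 5, against 34.3%. The counting interval lay below 1 in both sexes for 3 of 10 (Fos, Jun and Arc), against 9.36%. The members' median log2 ratio was -0.15 in males and -0.35 in females, beside -0.04 and -0.05 over all transcripts.

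The methods describe 6 dams in 2 groups and 6 litters in all, so the male and female libraries of a treatment may share litters. The limma fit takes no account of this. With the sexes taken as replicates of each treatment, limma was fitted to the 13162 transcripts with a mean of at least 1 FPKM, and 5 of the 10 members entered it. It called 0 of these 5 at an adjusted p under 0.05, while 74 transcripts were called, 0.562% of all, 60 of them lower and 14 higher with BPA. Neither the number nor this split held without 1 library, with 9 lower and 8 higher without the control male, 6 and 0 without the BPA male, 3 and 8 without the control female and 0 calls without the BPA female, nor without the filter or the trend, where limma called 0. At an unadjusted p under 0.05, limma had 1 member, Jun, and 2283 transcripts, 17.3% of all in the fit. With sex as a second term limma had 2 members there, Fos and Jun, against 19.6% of transcripts, and the same 2 with assembled transcripts left out (21.1%). Without the filter it had Jun and Arc (16.2%). Without the control male it had Fos, Jun and Egr1 (12.2%), without the BPA female Fos and Jun (14.6%), and without the BPA male (14.1%) or the control female (11.1%) 0 members. Jun had a log2 ratio of -0.28 ± 0.09 (SE) with an adjusted limma p of 0.199, and Fos, with the larger difference and the larger spread between the sexes, -0.94 ± 0.40 with an adjusted limma p of 0.297. Egr1 came to -0.28 ± 0.14, Junb to -0.31 ± 0.32 and Dusp1 to -0.10 ± 0.16, with adjusted limma p from 0.37 to 0.765. Without the BPA female library the log2 ratios of Junb and Dusp1 turned to 0.02 and 0.11. Over the fits without 1 library, Egr1 ran from -0.43 to -0.13 and Fos from -1.33 to -0.54. Arc was under the filter, and in the limma fit without it Arc had -0.78 ± 0.23 with an adjusted limma p of 0.256.

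**Figure D3:**
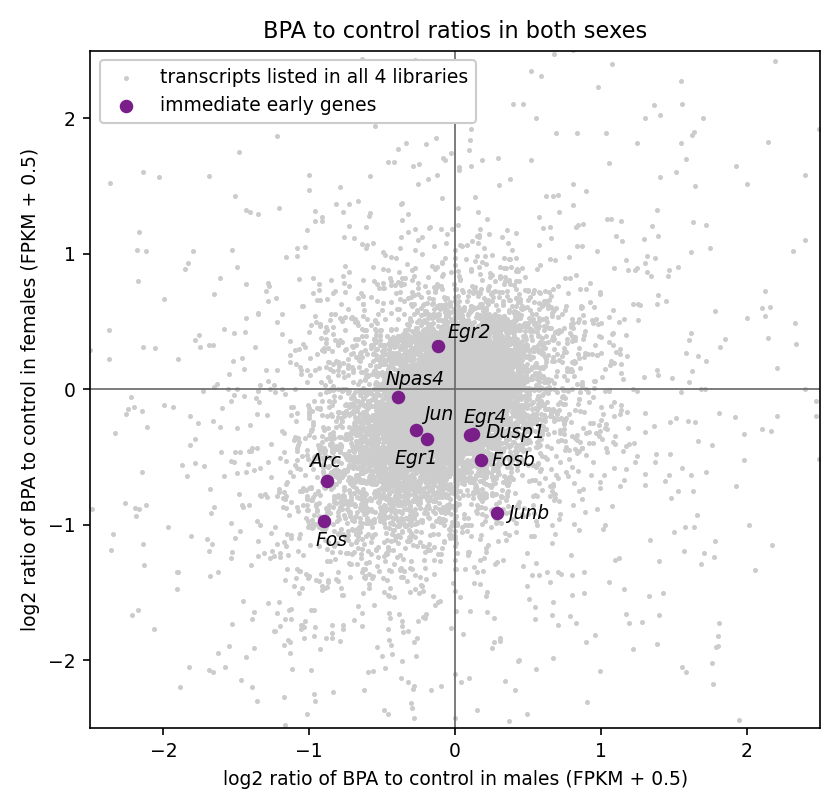
Log2 ratio of BPA to control in males (horizontal axis) and females (vertical axis), both on the scale of log2(FPKM + 0.5), for the 10 members as labelled large points and for the transcripts listed in all 4 libraries as small points, of which 133 lie outside the axes. Fos and Arc lie at the lower left, Junb lies to the right of 0 and near -0.91 on the vertical axis, and Egr2 is the only member above 0 on the vertical axis.

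Other transcription factors of the early response lay on both sides of 0. Of 18 such genes, 15 entered the limma fit and 0 were called, 4 having an unadjusted limma p under 0.05 against 17.3% of all transcripts in the fit, and their median log2 ratio was -0.10 in males and -0.14 in females. In both sexes 9 were below 0, beside 38.8% of all transcripts, and 4 above. Both BPA libraries were below both controls for 6 of the 18, beside 30.9% of all transcripts, and above them for 4, beside 17.1%. Klf4, a zinc-finger factor also active in endothelium, was the only one past 1 in size, with 1.16 FPKM in the control male library, 1.17 in the BPA male, 2.44 in the control female and 0.67 in the BPA female, a log2 ratio of 0.01 in males and -1.33 in females. The 3 most abundant were Jund, the most constitutive Jun protein, with log2 ratios of 0.38 in males and 0.06 in females, Klf6 with -0.09 and -0.20, and the growth regulator Myc with -0.09 and -0.13.

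Of 23 symbols of effectors and feedback regulators, 21 were listed, 18 entered the limma fit and 0 were called, with 4 at an unadjusted limma p under 0.05 (17.3% of all transcripts in the fit). Both BPA libraries were below both controls for 4 of the 21, against 30.9% of all transcripts, and above them for 6, against 17.1%. The most abundant were Plk2, a kinase that weakens synapses after prolonged activity, at 99.68, 112.55, 100.91 and 117.60 FPKM in the males (control, BPA) and then the females (control, BPA), Rgs2, which limits G-protein signalling, with log2 ratios of 0.09 in males and -0.25 in females, and the postsynaptic scaffold Homer1 with -0.03 and 0.03. Plk2 was thus slightly higher in both BPA libraries, with an adjusted limma p of 0.181 for a log2 ratio of 0.20 ± 0.06. The late response genes, which the early factors help to switch on, numbered 12, of which 9 entered the limma fit and 0 were called, 3 having an unadjusted limma p under 0.05, against the same 17.3%. Both BPA libraries were below both controls for 6 of the 12 and above them for 3, beside the same 30.9% and 17.1%. Their median log2 ratio was -0.23 in males and -0.17 in females. The most abundant of these were the secretory granule proteins Scg2, with -0.36 in males and -0.35 in females, and Vgf, with -0.24 and -0.30, and the neurite growth protein Nrn1, with -0.54 and -0.19.

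Upstream of the members, 25 of 30 symbols of kinases, channels and transcription factors were listed, all of them in the limma fit, and 1 was called, against 0.562% of all transcripts in the fit. At an unadjusted limma p under 0.05 there were 7 of the 25, against 17.3% of all transcripts in the fit, and both BPA libraries were below both controls for 11, against 30.9%, and above them for 3, against 17.1%. The called gene was Map2k1 (MEK1), a kinase in the middle of the MAP kinase cascade, at 26.90 FPKM in the control male library, 16.78 in the BPA male, 27.17 in the control female and 17.35 in the BPA female. It fell by 0.65 on the log2 scale, ± 0.07, with an adjusted limma p of 0.0383, and both BPA libraries were below both controls. It was called in 9 of 15 alternative limma fits and not without any 1 of the 4 libraries, without the filter or without the trend, where adjusted limma p ran from 0.114 to 0.178. Mapk3, a kinase of the same cascade, did not pass the test, with log2 ratios of -0.29 in males and -0.16 in females and an adjusted limma p of 0.183. Camk2b, the most abundant gene of the list, had 0.02 and 0.13. The median of the list was -0.11 in males and -0.08 in females.

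The stretch before the start of transcription is where several of these genes bind the activators named above, and sequences from RefSeq of the build GRCr8 were matched by symbol for 7 of the 10 members, Fosb, Junb, Egr1, Egr2, Egr4, Npas4 and Dusp1, and not for Fos, Jun and Arc. Both strands of the 250 bases before the start were searched for the CArG box of the serum response factor, for the CREB site TGACGTCA and its core TGACG, which the longer site contains, for the AP-1 site TGANTCA, for TATAAA and for the Egr site GCGNGGGCG. The CArG box was present for 2 of the 7, Egr1 and Egr2, against 1.5% of 33469 promoters of the same length. Egr1 had it at 105 and 83 bases before the start and Egr2 at 83. TGACG was present for 5 of the 7, against 18.2% of all promoters, and TGACGTCA for Dusp1 alone, against 1.59%. TATAAA was present for Fosb and Junb, against 12.9%. The Fosb match was on the opposite strand at 180 bases before the start, and the Junb match on the strand of the gene at 49. Only this exact word was searched, and variants of it were not. TGANTCA (6.34% of all promoters) and GCGNGGGCG (4.29%) had no match among the 7. A match describes the letters only, and binding was not measured.

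The sequences of Egr2, Junb and Dusp1 are shown because together they hold a CArG box, TGACGTCA and TATAAA, and because their ratios had opposite signs in the sexes. Fosb and Egr4 had opposite signs too. For Egr2 the interval of the female ratio to the male ratio, 0.436 to 15.2, held 1. A link between these sequences and the ratios was not tested. Capitals mark the CArG box, TGACG with TGACGTCA, and TATAAA, in sequences written 5′ to 3′ on the strand of the gene. A match on the opposite strand appears as its reverse complement, as TGACG does for Egr2. They lie at chr20:21054442-21054691 on the minus strand for Egr2, chr19:40080876-40081125 on the plus strand for Junb and chr10:17184603-17184852 on the plus strand for Dusp1, in GRCr8.
Egr2: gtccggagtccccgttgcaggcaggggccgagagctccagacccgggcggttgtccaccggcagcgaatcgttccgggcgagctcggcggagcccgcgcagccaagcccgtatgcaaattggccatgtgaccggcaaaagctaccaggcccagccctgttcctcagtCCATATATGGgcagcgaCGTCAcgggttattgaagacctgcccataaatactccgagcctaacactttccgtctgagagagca
Junb: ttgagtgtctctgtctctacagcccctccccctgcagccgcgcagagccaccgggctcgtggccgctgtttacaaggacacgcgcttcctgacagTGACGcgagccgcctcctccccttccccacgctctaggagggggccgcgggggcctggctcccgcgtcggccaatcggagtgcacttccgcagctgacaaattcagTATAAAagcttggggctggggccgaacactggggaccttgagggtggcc
Dusp1: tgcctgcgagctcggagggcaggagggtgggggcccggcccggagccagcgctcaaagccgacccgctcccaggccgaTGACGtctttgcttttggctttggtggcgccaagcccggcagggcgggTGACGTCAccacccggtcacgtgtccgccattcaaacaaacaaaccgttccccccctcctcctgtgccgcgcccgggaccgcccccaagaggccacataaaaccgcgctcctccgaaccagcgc

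Markers of the cells in the tissue were read beside these results. Of the neuronal markers 9 of 9 were listed, with a summed FPKM of 4202 in the control male library, 4479 in the BPA male, 4068 in the control female and 4367 in the BPA female, and with Tubb3, a neuronal tubulin, as the most abundant. In both sexes 3 of the 9 were lower with BPA, against 38.8% of all transcripts, and 4 were higher. Limma called 0 of them, and the median log2 ratio was -0.01 in males and 0.06 in females. Markers of cortical projection neurons (7 of 8 listed, most abundant Neurod6) summed to 557.5, 600.2, 545.4 and 578.3 FPKM in the same order, and these 7 were present in every library. Limma called 2 of these, in opposite directions, against 0.562% of all transcripts in the fit. Slc17a7, the vesicular glutamate transporter, had log2 ratios of -0.76 in males and -0.81 in females with an adjusted limma p of 0.0274, and the neurogenic factor Neurod2 had 0.43 and 0.57 with an adjusted limma p of 0.0482. Slc17a7 and Neurod2 were named after their values were seen. Limma called neither without any 1 of the 4 libraries, without the filter or without the trend, and adjusted limma p reached 0.157 for Slc17a7 and 0.22 for Neurod2. Neurod2 was also not called with a pseudocount of 0.1 or with equal sums without the 10 most abundant transcripts, so that limma called it in 7 of 15 alternatives and Slc17a7 in 9 of 15.

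Markers of other cells were also read. The study's methods describe removal of the meninges before the cortex was taken. All 10 meningeal markers were lower with BPA in both sexes, against 38.8% of all transcripts, and their sum went from 473.6 FPKM in the control male library to 215.8 in the BPA male, and from 617.7 in the control female to 148.9 in the BPA female. Their most abundant gene was Ptgds, a prostaglandin synthase, with log2 ratios of -0.97 in males and -2.25 in females, and limma called 6 of the 10, against 0.562% of all transcripts in the fit. Without 1 library, limma called 5 of these 6 without the control male, 2 without the BPA male, 1 without the control female and 0 without the BPA female, and it called 0 without the filter or without the trend. From lowest to highest the meningeal sum ran through the BPA female, the BPA male, the control male and the control female. The sum of the 10 members had that same order, noticed after the values were seen. The order was not particular to the meninges, since the endothelial, mural, microglial and olfactory bulb sums given below had it too. The share of all transcripts with this order was not counted. Single members differed from it. Fos, Jun, Egr1, Arc and Npas4 were lowest in the BPA male library, and Junb, Egr4 and Dusp1 were lowest in the BPA female. Endothelial markers (7 of 8 listed, most abundant Cldn5) summed to 102.9, 85.92, 119.1 and 72.52 FPKM in the males (control, BPA) and then the females (control, BPA), with all 7 lower in both sexes. Mural cell markers (6 of 6, most abundant Rgs5) summed to 47.79, 37, 51.19 and 36.31 FPKM, with 4 lower and 1 higher in both sexes. Microglial markers (8 of 8, most abundant Aif1) summed to 36.92, 35.38, 39.22 and 25.85 FPKM, with 4 lower in both sexes, the other 4 higher in males and lower in females, and a median log2 ratio of 0.03 in males and -0.60 in females. No marker of these lists was at the lowest listed value in a library. Whether the meningeal, vascular or microglial differences have a part in the values of Fos, Arc, Junb or the other members was not tested.

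Markers of neighbouring regions also differed. Striatal markers (9 of 9, most abundant Ppp1r1b) summed to 106.7 FPKM in the control male library, 161.6 in the BPA male, 111.1 in the control female and 172.9 in the BPA female. In both sexes 8 of the 9 were higher, while 38.8% of all transcripts were lower in both sexes and 34.3% had opposite signs. Limma called 2 of the 9, against 0.562% of all transcripts in the fit. Of these 2, limma called 1 without the control male or the control female, or with sex as a second term, and 0 without the BPA male, without the BPA female, without the filter or without the trend. Olfactory bulb markers (4 of 5 listed, most abundant Reln) summed to 74.38, 48.43, 86.47 and 47.64 FPKM and went both ways. Cdhr1 was at 41.10, 10.77, 44.48 and 9.29 FPKM with an adjusted limma p of 0.00835, and was not called without the BPA female library, without the filter or without the trend, where adjusted limma p reached 0.119. Tbx21 was at 1.74, 0.01, 0.85 and 0.05 FPKM, of which 0.01 is the lowest listed value, while Reln had log2 ratios of 0.24 in males and -0.11 in females and Doc2g 0.44 and 0.26. Cdhr1 and Doc2g were named after their values were seen. Astrocyte and radial glia markers (8 of 8, most abundant Fabp7) summed to 701.7, 593.9, 698 and 512.7 FPKM, and those of the oligodendrocyte lineage (7 of 7, most abundant Olig1) to 103, 91.77, 114.5 and 95.44 FPKM. GABA neuron markers (7 of 7, most abundant Dlx1) summed to 133.4, 121.1, 131 and 118.7 FPKM, blood markers (5 of 5, most abundant Hba1) to 1515, 1484, 1428 and 1198 FPKM, and choroid plexus markers (5 of 6 listed, most abundant Aqp1) to 1.25, 1.28, 1.72 and 0.72 FPKM, with Folr1 and Kl at 0.01 in at least 1 library. The part of these differences in the values of the members was not tested.

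Genes nearest to the mean centred profile of the 5 members in the limma fit were also sought. The search covered 10627 other genes with an NCBI Gene ID and a mean of at least 1 FPKM. Nearness was the Euclidean distance over the 4 libraries between centred log2 values and that profile. The profile was 0.02 in the control male library, -0.17 in the BPA male, 0.36 in the control female and -0.21 in the BPA female. It is a mean whose order of libraries no single member of the 5 had. Fos, Jun and Egr1 were lowest in the BPA male, while Junb and Dusp1 had the BPA male above the control male. Genes near this mean therefore need not follow any member. The nearest were Tmem176b at a distance of 0.027, Ccne1, a cyclin of the start of DNA replication, at 0.034, Notch2, a receptor of progenitor cells, at 0.036, and Slc7a10 and Jrkl, both at 0.037. Tmem176b, for example, was at 9.94 FPKM in the control male library, 8.77 in the BPA male, 12.66 in the control female and 8.55 in the BPA female.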

How the data were processed

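The authors treated RNA with oligo(dT), aligned clean reads with Bowtie 2 to Rnor_6.0 and quantified them by RSEM, per their methods, while the submitters' processing notes also name HISAT and the build rn6, with no versions. The deposited values are FPKM per transcript, with 2 decimals and 0.01 as the lowest, beside the transcript length in bases. Fragments were estimated as FPKM times length minus 60 bases times depth, where depth was the number that brought scarce transcripts (701 to 750 per library) closest to whole numbers. Between 82.1% and 84.5% of them came within 0.1 of one. The method was tested on simulated whole fragments with the same 60 bases taken off the length. That test does not cover fragment counts that are not whole or another rule for the length.

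Ratios within a sex were log2(BPA + 0.5) minus log2(control + 0.5), with exact conditional binomial intervals (95%) from the fragments and exact conditional odds ratio intervals between the sexes. The fit over all transcripts used limma 3.58.1 (R 4.3.3) with a trend, treatment as the only term, 2 residual degrees of freedom and Benjamini-Hochberg adjustment. It was tested on simulated data, with larger changes than those of the members, a small spread between libraries and changed transcripts of at least 5 FPKM. That test does not cover changes as small as that of Jun or levels as low as those of Fos and Junb. P-values measure only the spread between these libraries, since it is not stated whether each pooled its pups. Alternatives were other pseudocounts, filters, scalings, thresholds, sex as a second term, no trend, and leaving out each library. Other computations used Python 3.11.15, numpy 2.4.6, pandas 2.3.3, scipy 1.17.1 and matplotlib 3.10.9.

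The members and lists were chosen with earlier results of these data known. Named were all members, per list the genes past 1 in size or called by limma and the 3 most abundant, per marker list the most abundant and those at the lowest listed value, with 4 other markers added after their values were seen, and the 5 genes nearest to the members' profile. One gene that this rule names is not reported here. The lists were other early transcription factors, effectors and feedback regulators, late response genes, upstream factors and kinases, heat shock, glucocorticoid and hypoxia genes, and 13 marker lists. RefSeq promoters were those of GRCr8.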

Additional observations from a re-analysis of the deposited data

Results flagged for a closer look

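For 5 members the ratio of BPA to control had opposite signs in males and females, which 34.3% of all transcripts share, and with 1 library per sex and treatment the difference was not tested against the spread between animals. The female minus the male log2 ratio was -1.21 for Junb, from 0.29 in males and -0.91 in females, and -0.70 for Fosb, from 0.18 and -0.52. It was -0.45 for Dusp1, from 0.12 and -0.33, -0.44 for Egr4, from 0.10 and -0.34, and 0.44 for Egr2, from -0.12 and 0.32. In counting error alone, the interval of the ratio between the sexes lay below 1 for Junb and Dusp1, as for 10% of all transcripts, and held 1 for Fosb, Egr2 and Egr4. Junb, Dusp1 and Egr4 have the BPA female as their lowest library.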

How the results depend on the processing

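The limma log2 ratios of the members in the fit kept their sign under the alternatives, except without the BPA female library, where Junb and Dusp1 turned positive. Leaving out each library in turn, where the lone library of a treatment is assumed to vary like the others, gave -0.64 to 0.02 for Junb and -0.31 to 0.11 for Dusp1. Fos (-0.94) ran from -1.33 without the control male to -0.54 without the control female, Egr1 (-0.28) from -0.43 to -0.13 in the same order, and Jun (-0.28) from -0.32 to -0.25. Limma called 0 members in the 15 alternatives, although Fosb, Egr2, Egr4, Arc and Npas4 were fitted only without the filter, and Fos and Junb not with a mean FPKM of at least 5, and adjusted limma p ran from 0.143 to 0.688 for Fos and from 0.136 to 0.524 for Jun. The 74 calls over all transcripts became 0 with no filter on low values, 0 with no trend, 164 with a mean FPKM of at least 5 and 477 with assembled transcripts left out, of which 60 were among the 74. Without 1 library they ranged from 0 (without the BPA female) to 17 (without the control male), with 6 without the BPA male and 11 without the control female, from fewer samples. The number of members past 1 on the log2 scale, 0 in each sex, became 2 in males (Fos, Arc) and 3 in females (Fos, Fosb, Junb) with a pseudocount of 0.1, and 3 and 5 with none, an alternative chosen after seeing the data. At thresholds of 0.5 and 0.8 it was 2 and 2 in males and 4 and 2 in females. Ratios within a sex kept their sign under each pseudocount and scaling, but all were smaller in size with a pseudocount of 5. In females Fos was then at -0.34 (before, -0.97), Junb at -0.34 (-0.91), Arc at -0.16 (-0.68) and Fosb at -0.08 (-0.52). In males Fos was at -0.22 (-0.90) and Arc at -0.17 (-0.88), while Jun moved less, to -0.20 (-0.27). The 4 members with both BPA libraries below the controls numbered 4 under both scalings. Summing per gene symbol changed nothing, since no symbol is listed more than once. Fosb, Egr2, Egr4 and Npas4, with 1 to 15 fragments per library, are limited by depth. The causes of the other changes were not tested.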

Other observations

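Lists of genes that respond to heat, glucocorticoids and low oxygen were read beside the activity genes. Of the heat shock genes, 7 of 8 were listed and 5 entered the limma fit, with 0 called and 1, the endoplasmic reticulum chaperone Hspa5, at an unadjusted limma p under 0.05, against 17.3% of all transcripts in the fit. Hspa5 was at 123.17 FPKM in the control male library, 90.04 in the BPA male, 138.02 in the control female and 104.49 in the BPA female, with an adjusted limma p of 0.123 for a log2 ratio of -0.42 ± 0.09. The most abundant, Hspa8, had log2 ratios of -0.15 in males and -0.14 in females, and Hsp90aa1 had -0.01 and -0.02. Both BPA libraries were below both controls for 4 of the 7 heat shock genes, against 30.9% of all transcripts, and above them for 1, against 17.1%. The heat shock list had a median of -0.25 in males and -0.04 in females.

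The 7 glucocorticoid response genes all entered the limma fit, with 0 called and 0 at an unadjusted limma p under 0.05, against 17.3% of all transcripts in the fit. Both BPA libraries were below both controls for 1 and above them for 1, beside 30.9% and 17.1% of all transcripts. The list had a median of 0.11 in males and -0.07 in females. Ddit4 was the most abundant with 0.03 and -0.07, followed by Tsc22d3 with 0.16 and -0.22 and Fkbp5 with -0.17 and -0.06. Of the 7 hypoxia response genes, 6 entered the limma fit, with 0 called and 2 at an unadjusted limma p under 0.05, against the same 17.3%. Both BPA libraries were below both controls for 4 of the 7 and above them for 0, beside the same 30.9% and 17.1%. The median was -0.08 in males and -0.27 in females. The most abundant were Ldha with -0.07 and -0.09, Bnip3 with -0.23 and -0.41, and Slc2a1 with 0.18 and -0.20.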
